A study of Mus musculus with 2 samples.

Results

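Basal cells of the mouse limbus that also carried Krt12, the keratin of the differentiating corneal epithelium, were taken from single-cell RNA sequencing of the cornea and limbal rim. They were chosen cell by cell on CPM, a gene's UMI count scaled to a fixed total of UMIs in the cell: at least 500 CPM of Gpha2, at least 2000 CPM of Krt14, at least 3500 CPM of Krt12, and under 2000 CPM of both Krt4 and Dcn. These limits found 312 cells of the 7668 in the deposited matrices, 201 of 5155 in the Beclin1 +/- library and 111 of 2513 in the WT library. The share was 3.90% in Beclin1 +/- and 4.42% in WT, with exact binomial 95% intervals of 3.39% to 4.46% in Beclin1 +/- and 3.65% to 5.30% in WT, so the shares differed by less than their counting error.

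The study set a mouse heterozygous for Beclin1 (Becn1, whose protein takes part in the initiation of autophagy) against a wild-type littermate. Per the labels both were C57BL/6 females of 28 days, and each genotype was 1 mouse and 1 10x Genomics library of the anterior segment, from which lens, retina, iris and trabecular network had been taken out and most conjunctiva cut away. Cells were released with collagenase A followed by trypsin. No allele other than the Beclin1 one is named, and neither animal is described as treated. With 1 library a genotype no test across animals was possible, intervals below cover counting error only, and genotype, animal and library cannot be told apart.

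The limbus is the ring between cornea and conjunctiva whose basal layer holds the epithelial stem cells of the cornea. Their progeny divide, move toward the centre of the cornea and switch on the corneal program, of which Krt12 and the dehydrogenase Aldh3a1 are classical products. Gpha2, a secreted glycoprotein hormone subunit, and Krt15, a basal keratin, are known markers of the mouse limbus, Gpha2 more of its outer and slowly dividing zone. A cell with both Gpha2 and Krt12 RNA carries transcripts that are usually used to separate limbus from cornea.

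The starts of the genes for both defining transcripts are shown because the cells were picked for holding these RNAs together. Each line gives 100 bases before the RefSeq transcription start on GRCm38.p6, 5′ to 3′ on the gene's own strand. Capitals mark the TATA box letters TATAAA, the GC box letters GGGCGG and the short KLF-type motif CACCC, each on either strand.
Gpha2, chr19:6226301-6226400, plus strand: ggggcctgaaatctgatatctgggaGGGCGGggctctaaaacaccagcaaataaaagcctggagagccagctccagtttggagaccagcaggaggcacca
Krt12, chr11:99422260-99422359, minus strand: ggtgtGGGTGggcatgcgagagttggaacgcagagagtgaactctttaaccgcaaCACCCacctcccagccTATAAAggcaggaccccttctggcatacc
The Krt12 window held 1 TATA box match and a CACCC match on each strand and no GC box match, and the Gpha2 window held 1 GC box match only. Among the windows of the same length before 32851 RefSeq promoters, 5.56% held the TATA box letters, 24.7% the GC box letters and 27.2% the CACCC letters, so these letters are a description and mark no binding site. On GRCm38 the annotated gene of Gpha2 spans chromosome 19 from 6226380 to 6227768 on the plus strand and that of Krt12 spans chromosome 11 from 99415666 to 99422259 on the minus strand. The annotated start of Gpha2 differs from the RefSeq start and lies inside the window shown, so the end of that window overlaps the annotated gene. Krt14 (100203162 to 100207548) and Krt15 (100131758 to 100135928) lie on the same strand of chromosome 11 as Krt12.

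The cells were set beside 2 neighbours cut by the same limits. Krt12-low limbal basal cells met every limit but had under 3500 CPM of Krt12 (162 cells in Beclin1 +/- and 118 in WT), and Gpha2-low corneal basal cells met every limit but had under 500 CPM of Gpha2 (1538 in Beclin1 +/- and 842 in WT). Among all limbal basal cells, 55.4% were Krt12-positive in Beclin1 +/- (201 of 363, exact binomial 95% interval 50.1% to 60.6%) and 48.5% in WT (111 of 229, 41.8% to 55.1%). The Krt12-positive cells had a median of 10742 UMIs in Beclin1 +/- and 14684 in WT, against 9525 and 14469 in Krt12-low cells of the same libraries. Their depth ran between 5504 and 46320 UMIs in Beclin1 +/- and between 8370 and 40163 in WT, and their summed UMIs were 2796653 in Beclin1 +/- and 1879101 in WT. Scrublet scores at a removal rate of 0.8% per 1000 barcodes would mark 8 of the 201 Beclin1 +/- cells (3.98%) and 5 of the 111 WT cells (4.50%) as doublets. The same scores would mark 0 Krt12-low limbal cells in either library, and 1.63% of corneal basal cells in Beclin1 +/- and 0.950% in WT. No barcode was removed for the values below. The libraries shared 15 barcodes, and 1 Krt12-positive cell in each library carried a barcode also seen in the other, in no case that of a Krt12-positive cell there.

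The values that chose the cells are a description. Per cell, Krt12 had a median of 8412 CPM in the Beclin1 +/- cells (3505 to 29541) and 7116 CPM in the WT cells (3647 to 29576). Gpha2-low corneal basal cells had medians of 17817 CPM in Beclin1 +/- and 19542 CPM in WT, and Krt12-low limbal cells 1392 CPM and 851 CPM. The limits set the cells above the Krt12-low ones. They do not set them below the corneal ones, which had to pass the same Krt12 limit. Stromal cells, which should lack Krt12 and were taken as cells with at least 2000 CPM of Dcn and under 2000 CPM of Krt14, still had a median of 993 CPM in Beclin1 +/- and 651 CPM in WT. Their ninetieth percentile was 2220 CPM in Beclin1 +/- and 1233 CPM in WT, below the limit of 3500 CPM, and the Krt12-low limbal cells had medians close to this background.

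**Figure D1:**
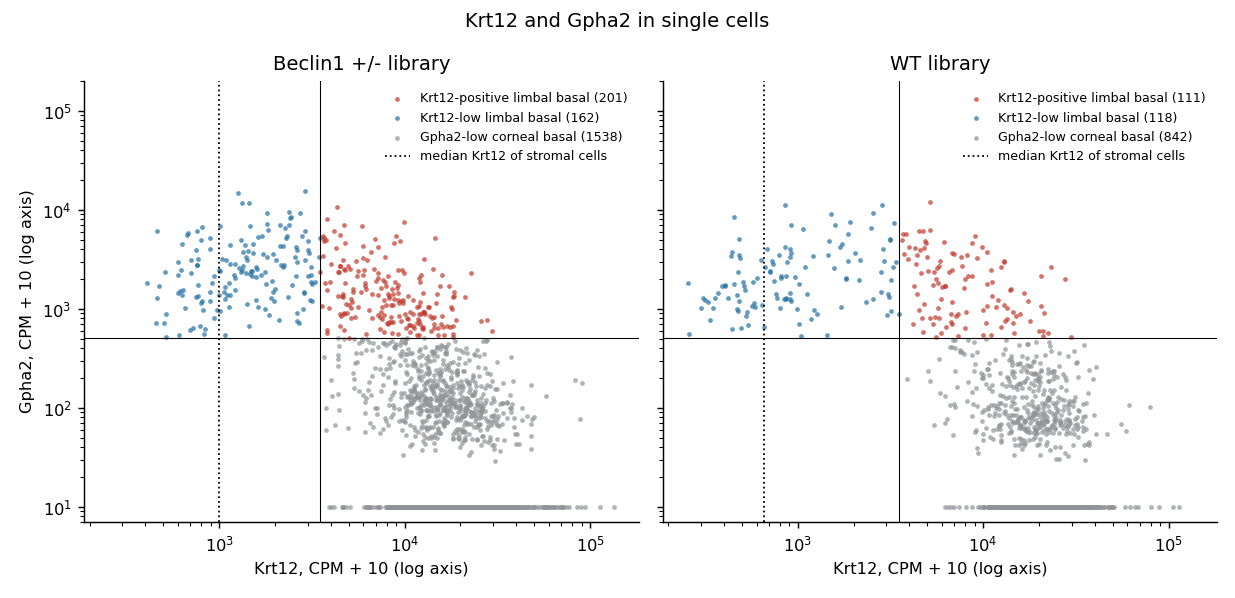
Krt12 (horizontal) against Gpha2 (vertical) in each basal cell, in CPM plus 10 on log axes, with Beclin1 +/- on the left and WT on the right; solid lines are the limits of 3500 CPM Krt12 and 500 CPM Gpha2 and the dotted line is the median Krt12 of stromal cells (993 CPM in Beclin1 +/-, 651 CPM in WT). Limbal cells form 1 continuous spread across the Krt12 limit, with no empty band at 3500 CPM.

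The class is a range cut from continuous values. The 5 cells just under the Krt12 limit had 3161 to 3470 CPM in Beclin1 +/- and 3191 to 3485 CPM in WT, and the 5 just over it had 3505 to 3679 CPM in Beclin1 +/- and 3647 to 3907 CPM in WT. Between 2500 and 3500 CPM lay 29 Beclin1 +/- and 18 WT limbal cells, and between 3500 and 4500 CPM lay 26 and 14. The 5 cells just over the Gpha2 limit had 503 to 530.2 CPM in Beclin1 +/- and 513 to 529.9 CPM in WT, against 489 to 499 CPM and 474 to 483 CPM just under it. Per cell Gpha2 had a median of 1184 CPM in the Beclin1 +/- cells and 1634 CPM in the WT cells. Gpha2 RNA was also found outside the epithelium. Stromal cells held 503 CPM in sum in Beclin1 +/- and 518 CPM in WT, close to the Gpha2 limit of 500 CPM. That limit alone therefore does not set a cell apart from the stromal level. Corneal basal cells held 62.9 CPM and 65.2 CPM, but they were cut at under 500 CPM of Gpha2, so the limit kept them low.

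The label was checked against markers that did not enter the limits. Krt15 RNA was present in 94.0% of the Beclin1 +/- cells and 93.7% of the WT cells after each cell was thinned to 5000 UMIs. Summed over cells, Krt15 stood at 3077 CPM in Krt12-positive, 4936 CPM in Krt12-low and 892 CPM in corneal basal cells of Beclin1 +/-. In WT it stood at 2744 CPM, 6248 CPM and 736 CPM in the same order. Krt5, the partner keratin of basal epithelium, was at 3029 CPM in the Beclin1 +/- cells and 3022 CPM in the WT cells, and Pax6, the eye and corneal epithelial transcription factor, at 118 CPM and 90.5 CPM. Trp63, the transcription factor of basal epithelial progenitors, stood at 72.2 CPM in the Beclin1 +/- cells and 80.9 CPM in the WT cells, close to the 79.2 CPM and 72.1 CPM of the Krt12-low cells. The cells thus held RNA of basal, limbal and corneal markers together. Krt15 lay between its levels in Krt12-low and corneal cells in both libraries. Krt5 and Pax6 are given without the level of other cells, so they describe the class and do not set it apart.

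Markers of other cell types were low but not absent. The goblet cell list summed to 12.5 CPM in the Beclin1 +/- cells and 12.2 CPM in the WT cells, with Muc5ac, Spdef and Tff1 at 0 in both. Melanocyte genes summed to 2.86 CPM in Beclin1 +/- and 6.92 CPM in WT, leukocyte genes to 7.51 CPM and 3.73 CPM, vascular endothelial genes to 8.58 CPM and 5.85 CPM, mast cell genes to 8.22 CPM and 10.6 CPM, and Schwann cell genes to 38.3 CPM and 33.5 CPM. Stromal genes summed to 448 CPM in the Beclin1 +/- cells and 652 CPM in the WT cells, against 87875 CPM and 97405 CPM in the stromal cells themselves. A single WT cell of the class held 13678 CPM of stromal genes, and the next held 1369 CPM. The highest Beclin1 +/- cell held 3518 CPM and the next 1622 CPM. Krt4 and Krt13, keratins of conjunctiva, were at 89.8 CPM and 52.6 CPM in Beclin1 +/-, and Krt4 was at 100.1 CPM in WT. Krt4 entered the limits, and in Krt12-low cells it stood at 214 CPM in Beclin1 +/- and 454 CPM in WT.

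The targeted gene was measured in both genotypes. Becn1 stood at 39.0 CPM in the Beclin1 +/- cells (109 UMIs) and 39.9 CPM in the WT cells (75 UMIs), a log2 ratio of −0.04 with an exact 95% interval of −0.47 to 0.41. In Krt12-low cells it was at 47.4 CPM in Beclin1 +/- and 52.3 CPM in WT, and in corneal basal cells at 40.3 CPM in both libraries. No lower Becn1 count was detectable in the heterozygote at this depth. The reads are tags from the 3′ end of transcripts, the place of the deletion is not given in the sources used here, and the level therefore does not check the genotype label.

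Set against Krt12-low limbal cells, the Krt12-positive cells held several-fold more RNA of Slurp1, Lypd2, Aldh3a1 and 3 matrix metalloproteinases, and less of Calcb, Ccl20, Krt7, Krt17 and Igfbp2. Both groups were cut on Krt12 in these very cells, so genes that vary with Krt12 had to differ, and the following ratios are a description with no test. Counts were summed over cells, and genes averaging 20 CPM or more were compared as log2 ratios with 0.5 added to each count. Of 4207 genes, 37 were at least 2-fold higher in both libraries (0.879%) and 63 at least 2-fold lower in both (1.5%). The median gene stood at −0.05 in Beclin1 +/- and −0.08 in WT. The central 90% of genes lay between −0.72 and 0.67 in Beclin1 +/- and between −0.82 and 0.58 in WT.

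Slurp1 and Lypd2 ranked first and second among the higher genes. Slurp1, a secreted Ly6-family protein of the cornea, was at 871 CPM in Krt12-positive against 125 CPM in Krt12-low cells of Beclin1 +/-, and at 705 against 73.5 CPM in WT. Its log2 ratio was 2.80 (95% interval 2.60 to 3.01) in Beclin1 +/- and 3.26 in WT. Its relative Lypd2 was at 1718 against 277 CPM in Beclin1 +/- and 1255 against 172 CPM in WT, with ratios of 2.63 and 2.87. The water channel Aqp5 had ratios of 2.25 in Beclin1 +/- and 2.30 in WT, and at 754 CPM and 518 CPM it remained well under the 2317 CPM and 2089.7 CPM of corneal basal cells. Among cells with 3500 to 7000 CPM of Krt12 its ratios were 0.76 in Beclin1 +/- and 0.43 in WT, under the 2-fold limit in both. All 3 were thus high in corneal cells, intermediate in Krt12-positive limbal cells and low in the rest of the limbus.

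Several enzymes followed the same order. Aldh3a1, the corneal aldehyde dehydrogenase, was at 6518 CPM in Krt12-positive against 1316 CPM in Krt12-low cells of Beclin1 +/-, and at 6739 against 1125 CPM in WT. The ratios were 2.31 (2.25 to 2.37) in Beclin1 +/- and 2.58 (2.52 to 2.64) in WT. Tkt, the transketolase of the pentose phosphate pathway, had ratios of 1.67 in Beclin1 +/- and 1.85 in WT, and Gyg, which primes glycogen synthesis, 2.39 and 2.30. Mgarp, a mitochondrial protein abundant in cornea, was at 2138 CPM in Krt12-positive cells of Beclin1 +/- and 2314 CPM in those of WT, with ratios of 2.07 and 2.25. Guca1a, known as an activator of guanylate cyclase in photoreceptors, was at 102 CPM in the Beclin1 +/- cells and 76.6 CPM in the WT cells, with ratios of 2.68 and 2.69. The EGF-family ligand Epgn had ratios of 2.27 in Beclin1 +/- and 2.71 in WT.

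Of 14 listed proteases of the wound edge 10 were measured, and 3 matrix metalloproteinases among them were called higher. Mmp10 stood at 183 CPM in Krt12-positive against 27.7 CPM in Krt12-low cells of Beclin1 +/-, and at 223 against 12.2 CPM in WT. Mmp13 stood at 135 against 7.51 CPM in Beclin1 +/- and 55.3 against 7.21 CPM in WT, ratios of 4.12 and 2.90. Mmp3 had ratios of 2.83 in Beclin1 +/- and 3.63 in WT, but among cells with 3500 to 7000 CPM of Krt12 its ratio in Beclin1 +/- was −0.02. Mmp10 and Mmp13 were higher still in corneal basal cells (382 and 215 CPM in Beclin1 +/-). Mmp3 was at 47.2 CPM in the Krt12-positive cells and 28.5 CPM in corneal cells of Beclin1 +/-. In WT it was at 30.3 against 26.4 CPM, a ratio of 0.21 (interval −0.22 to 0.60), so no difference was resolved there. Mmp3 also sat in few cells. In the Krt12-positive class, 5 cells held 77.3% of its 132 UMIs in Beclin1 +/- and 89.5% of its 57 UMIs in WT.

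The 12 lowest genes by ratio bound included 3 keratins. Krt17, a keratin of stressed and hair follicle epithelium, stood at 960.4 CPM in Krt12-positive against 2796 CPM in Krt12-low cells of Beclin1 +/-, and at 608 against 2347 CPM in WT. Among cells with 3500 to 7000 CPM of Krt12 its Beclin1 +/- ratio was −0.87, under the 2-fold limit. Krt7, a keratin of simple and conjunctival epithelium, had ratios of −1.96 in Beclin1 +/- and −2.65 in WT, and Krt19 −1.97 and −3.42. In WT 51.1% of the Krt19 UMIs of the class came from 1 cell. The conjunctival list summed to 1129.9 CPM in Krt12-positive, 947 CPM in Krt12-low and 2608 CPM in corneal cells of Beclin1 +/-, and to 866, 1495 and 2251 CPM in WT. Of its 7 measured genes 3 were called lower than in Krt12-low cells and 1 higher. The summed list was thus higher in the class than in Krt12-low cells in Beclin1 +/- and lower in WT. A sum is weighted to its most abundant genes, and the genes taken singly did not differ between libraries in this way. Their median ratio over Krt12-low cells was −0.94 in Beclin1 +/- and −1.76 in WT, with 5 of 7 below 0 in both libraries and 1 above. The part of remaining conjunctival cells in these ratios was not tested.

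Of 4 measured genes of the IGF axis 2 were called lower, Igfbp2 and Igfbp3. Igfbp2, which binds insulin-like growth factors, was at 259 CPM in Krt12-positive against 894 CPM in Krt12-low cells of Beclin1 +/-, and at 266 against 789 CPM in WT, with ratios of −1.79 and −1.57. Igfbp3 of the same family had ratios of −2.04 in Beclin1 +/- and −2.79 in WT. The chemokine Ccl20 was at 13.9 against 65.9 CPM in Beclin1 +/- and 13.3 against 76.2 CPM in WT. The neuropeptide gene Calcb was at 23.2 against 134 CPM in Beclin1 +/- and 24.5 against 244 CPM in WT. In WT 36 of its 46 UMIs in the class (78.3%) came from 1 cell, and its ratio of −3.31 was −5.23 without the highest cell of each group. In Beclin1 +/- its ratio was −2.52, or −1.45 among cells with 3500 to 7000 CPM of Krt12. These 4 genes encode secreted proteins, and each was lower in the Krt12-positive cells of both libraries.

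Sox4, a transcription factor of progenitor cells, was at 17.9 CPM in Krt12-positive against 71.1 CPM in Krt12-low cells of Beclin1 +/- and at 13.8 against 64.5 CPM in WT. Tppp3, a tubulin-binding protein, had ratios of −2.23 in Beclin1 +/- and −1.63 in WT, Csrp2, a LIM-domain protein, −2.74 and −2.17, and Cyp2f2, a cytochrome P450, −2.26 and −3.06. Sprr2f, a cornified envelope gene, had ratios of −3.56 in Beclin1 +/- and −2.45 in WT. It had 14 UMIs in 3 of the Beclin1 +/- cells, 85.7% of them in 1 cell, and 19 UMIs in 4 of the WT cells, 63.2% of them in 1 cell. With the Gpha2 limit at 1000 CPM its ratios were −1.94 in Beclin1 +/- and −4.90 in WT. The ratio of Wfdc18, −3.38 in Beclin1 +/- and −5.19 in WT, also rested on few cells: 97.0% of its 269 UMIs in the Beclin1 +/- cells and 96.4% of its 28 UMIs in the WT cells came from 5 cells of each library. Without the barcodes scored as doublets its ratio was −5.0 in Beclin1 +/- and −6.26 in WT.

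**Figure D2:**
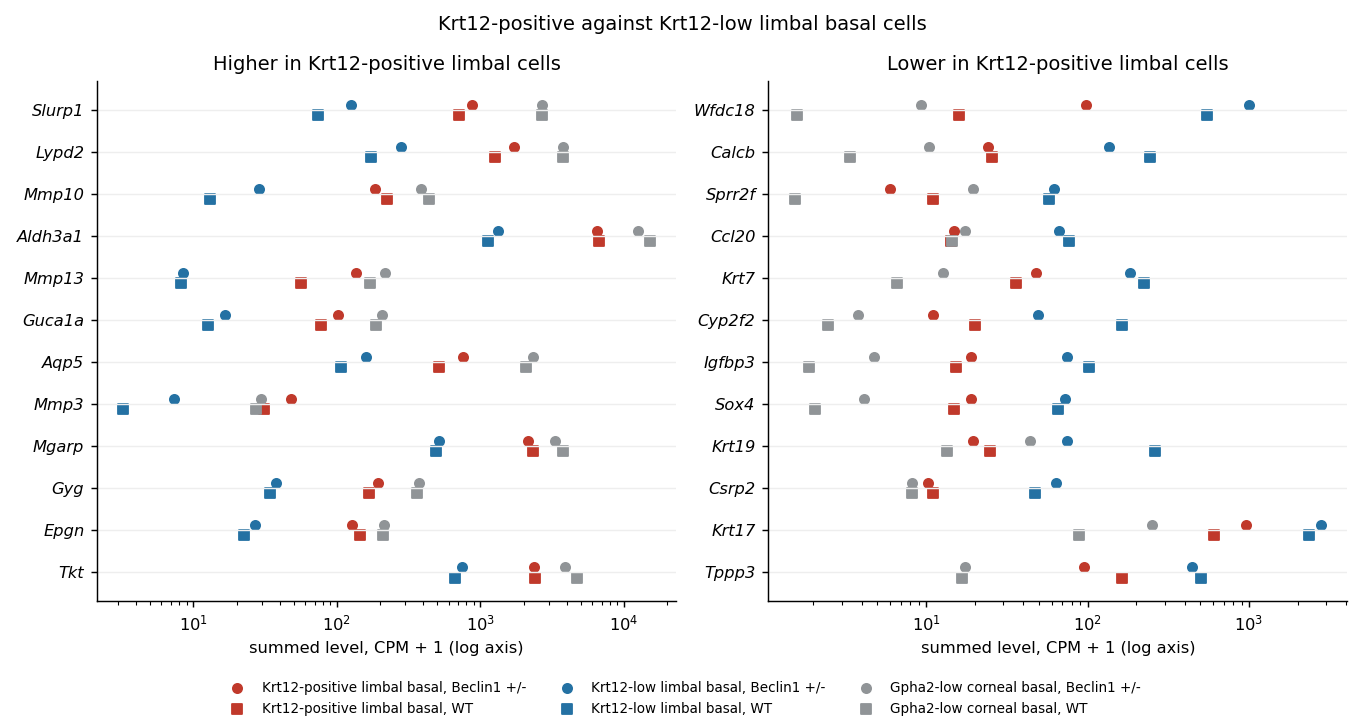
CPM plus 1 (log axis) of the 12 highest and 12 lowest genes by ratio bound in Krt12-positive limbal, Krt12-low limbal and Gpha2-low corneal basal cells; circles are Beclin1 +/- and squares WT. Slurp1, Lypd2, Aldh3a1 and Aqp5 sit between limbal and corneal levels, and Krt17, Krt7 and Sox4 sit between the high level of Krt12-low cells and the low level of corneal cells.

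Genes that set the neighbours apart mostly lay between them in the Krt12-positive cells. Of 108 genes at least 2-fold higher in corneal than in Krt12-low limbal cells, 101 had an intermediate level in both libraries, at a median of 65.0% of the log2 distance from Krt12-low to corneal cells in Beclin1 +/- and 52.5% in WT. Of 139 genes at least 2-fold higher in Krt12-low limbal than in corneal cells, 125 were intermediate in both, at a median of 40.4% of the distance in Beclin1 +/- and 37.0% in WT. The median position of the corneal genes was nearer the corneal end than that of the limbal genes in both libraries. Sums over a class cannot tell apart a level shared by its cells from a mix of cells near either end.

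Levels along Krt12 show how the class is made up. Limbal cells were divided at 500, 1000, 2000, 3500, 7000 and 14000 CPM of Krt12. The Krt12-positive cells fell into the last 3 bins with 74, 94 and 33 cells in Beclin1 +/- and 55, 37 and 19 in WT. Aldh3a1 stood at 3494, 6595 and 11174 CPM in these bins of Beclin1 +/- and at 4515, 6384 and 13651 CPM in WT. Slurp1 stood at 254, 943 and 1662.5 CPM in Beclin1 +/- and at 246, 729.7 and 1928 CPM in WT. Both genes therefore climbed within the class, and the cells just over the limit held less of them than the class mean. In Beclin1 +/- 2, 2 and 4 cells of these bins were scored as doublets, the largest share being in the top bin of 33 cells. Their part in the top-bin values given here and below was not tested.

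Krt15 and Igfbp2 ran the other way within the class. Krt15 stood at 4286, 2788.5 and 1925 CPM in Beclin1 +/- and at 3462, 2508 and 1228 CPM in WT. Igfbp2 stood at 366, 255 and 97.6 CPM in Beclin1 +/- and at 305, 289.8 and 109 CPM in WT. Gpha2, a gene of the limits, did not run one way over all limbal cells: in WT it was at 1752, 2198, 2892, 3106, 2348, 1746 and 1020.0 CPM over the 7 bins, with its top in the bin just under the Krt12 limit. Beclin1 +/- had 1736, 2075, 3023, 3622, 2326, 1354.5 and 1117 CPM, with the top in the same bin. The lowest bin held 6 Beclin1 +/- cells and the highest 19 WT cells, and values from these are less precise.

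Immediate early genes, which cells switch on within minutes of a stimulus, had a low point around the Krt12 limit. Fos, a subunit of AP-1, stood at 739 CPM in the bin from 2000 to 3500 CPM of Krt12 and at 539, 689 and 1662.5 CPM in the 3 bins above it in Beclin1 +/-. In WT it stood at 689 CPM and at 578, 501 and 1491 CPM. The lowest bin held 1913 CPM in Beclin1 +/- and 1847 CPM in WT. Id1, a target of BMP signalling, stood at 256, 287.5 and 457 CPM in the 3 bins of the class in Beclin1 +/- and at 227, 284 and 329 CPM in WT, against 845 and 864 CPM at 500 to 1000 CPM of Krt12. Both genes were thus lower in the middle of the range than at its low end, in both libraries. Dissociation can induce such genes, and its part was not tested.

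**Figure D3:**
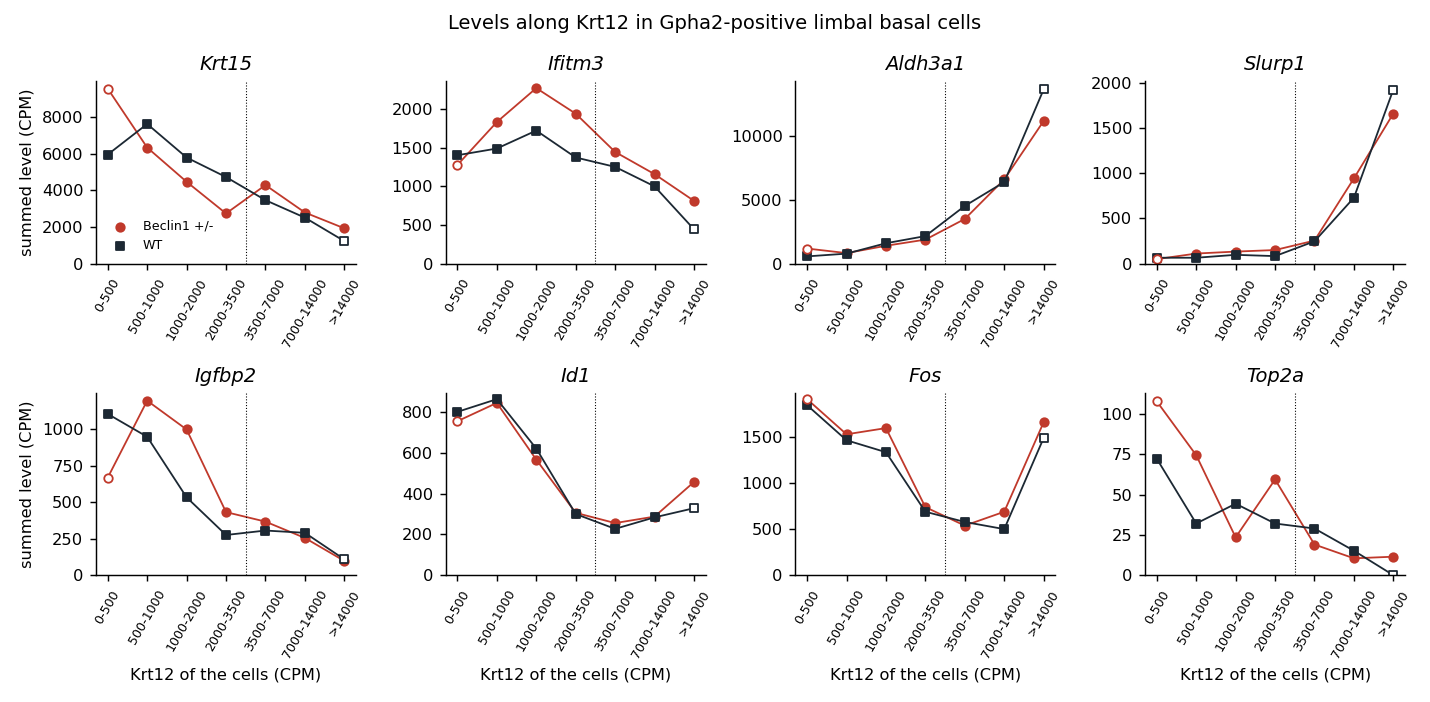
CPM of 8 genes (Krt15, Ifitm3, Aldh3a1, Slurp1, Igfbp2, Id1, Fos, Top2a) summed over limbal basal cells in 7 bins of Krt12, Beclin1 +/- and WT separately; the dotted line is the limit of 3500 CPM and open symbols are bins of under 20 cells. Aldh3a1 and Slurp1 climb and Krt15 and Igfbp2 decline over the 3 bins of the class, and Fos reaches 1662.5 CPM in Beclin1 +/- and 1491 CPM in WT in the highest bin.

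Over the whole immediate early list, 17 of 23 measured genes were lower in the Krt12-positive than in the Krt12-low cells of both libraries, with a median log2 ratio of −0.28 in Beclin1 +/- and −0.65 in WT. With the Gpha2 limit at 250 CPM the WT median was 0.015. The 4 called ones were Atf3, Nr4a1, Klf2 and Myc. Atf3, a stress-induced transcription factor, stood at 328 CPM in Krt12-positive against 900.0 CPM in Krt12-low cells of Beclin1 +/- and at 216 against 754 CPM in WT. With 285 CPM in corneal cells of Beclin1 +/- and 243 CPM in those of WT, the Krt12-positive cells were close to the corneal level. Antigen presentation genes were lower in 5 of 5, at medians of −0.30 in Beclin1 +/- and −0.68 in WT, and none was called.

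None of 15 measured basement membrane adhesion genes was called (over all genes 0.879% higher and 1.5% lower), with medians of 0.19 in Beclin1 +/- and −0.036 in WT. Among them Col17a1, a hemidesmosome collagen of basal cells, stood at 461 CPM in Krt12-positive against 288 CPM in Krt12-low cells of Beclin1 +/- and at 442 against 295 CPM in WT, under the 2-fold limit. Of 13 measured cholesterol synthesis genes, 12 had ratios above 0 in both libraries, with medians of 0.37 in Beclin1 +/- and 0.59 in WT, and none was called. Of 10 measured corneal differentiation genes, 3 were called higher and 1 lower, with medians of 0.75 in Beclin1 +/- and 0.71 in WT; that list was chosen with these results known.

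Set against Gpha2-low corneal basal cells, the Krt12-positive limbal cells held more RNA of Apoe, Igfbp7 and 7 of 10 measured alarm and antimicrobial genes, and less of Slurp1, Aqp5, Pthlh and 7 of 11 measured G2 and M phase genes. These groups were cut on Gpha2, and the ratios are again a description. Of 4149 genes, 67 were at least 2-fold higher in both libraries (1.61%) and 45 at least 2-fold lower (1.08%). The median gene stood at −0.02 in Beclin1 +/- and −0.05 in WT, and the central 90% lay between −0.60 and 0.58 in Beclin1 +/- and between −0.72 and 0.66 in WT.

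Apoe, which carries lipids and binds lipoprotein receptors, stood at 1649.5 CPM in the Krt12-positive limbal against 213 CPM in corneal basal cells of Beclin1 +/-, and at 1449.6 against 179 CPM in WT. Its log2 ratio was 2.95 (95% interval 2.89 to 3.01) in Beclin1 +/- and 3.02 (2.94 to 3.09) in WT, and Krt12-low cells held 3624 CPM and 2433 CPM. The interferon-induced membrane protein Ifitm3 was at 1178 against 446 CPM in Beclin1 +/- and 1023 against 344 CPM in WT. Cd63, a tetraspanin, was at 277 against 73.5 CPM in Beclin1 +/- and 305 against 65.4 CPM in WT, but stromal cells held 3262 CPM and 3442 CPM of it. Igfbp7, a secreted growth factor binder, was at 189.5 against 33.1 CPM in Beclin1 +/- and 247 against 33.0 CPM in WT. Apoe, Ifitm3 and Cd63 were highest in Krt12-low, intermediate in Krt12-positive and lowest in corneal cells of both libraries. Igfbp7 was higher in Krt12-positive than in Krt12-low cells in WT only (247 against 138 CPM, and 189.5 against 227 CPM in Beclin1 +/-).

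Of 10 measured alarm and antimicrobial genes, 10 had ratios above 0 in both libraries and 7 were called, with medians of 1.34 in Beclin1 +/- and 2.13 in WT. Lcn2, which binds bacterial siderophores, was at 113 against 4.97 CPM in Beclin1 +/- and 64.9 against 1.36 CPM in WT. S100a8, a calcium-binding alarm protein, was at 99.0 against 19.0 CPM in Beclin1 +/- and 94.2 against 13.1 CPM in WT. Its WT ratio of 2.85 was 0.76 once the single highest cell of each group was left out, 0.40 with the Gpha2 limit at 1000 CPM and −4.65 with the Krt12 limit at 7000 CPM. Csf3, the granulocyte colony-stimulating factor, was at 311 against 75.3 CPM in Beclin1 +/- and 243 against 30.1 CPM in WT. Beside Krt12-low cells the same list had medians of −0.19 in Beclin1 +/- and −0.17 in WT.

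Other higher genes were Fst, which binds activins and BMPs, with ratios of 2.31 in Beclin1 +/- and 3.27 in WT, and Thbs1, a matrix glycoprotein, with 2.21 and 2.60. Map1b, a microtubule-associated protein, had 2.21 and 2.23, and Mgst1, a membrane glutathione transferase, 2.19 and 2.57. Krt17 had 1.95 in Beclin1 +/- and 2.79 in WT, and Tppp3 2.53 and 3.36. Wfdc18 had 3.53 and 4.61, or 1.87 and 3.51 without the barcodes scored as doublets. Id1 and Id3, BMP targets, were at 309.7 and 631 CPM in the Krt12-positive cells of Beclin1 +/- against 120.1 and 323 CPM in corneal cells. In WT they were at 264 and 584 CPM against 126 and 322 CPM. Ribosomal protein genes were above 0 in 43 of 44, at medians of 0.20 in Beclin1 +/- and 0.22 in WT, a small and uniform difference.

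Among the genes lower than in corneal cells, Pthlh, the parathyroid hormone-related protein, stood at 105 CPM in the Krt12-positive cells of both libraries, against 346 CPM in corneal cells of Beclin1 +/- and 429 CPM in those of WT. Slurp1 had ratios of −1.62 in Beclin1 +/- and −1.93 in WT, and Aqp5 −1.62 and −2.01. Adtrp had ratios of −1.93 in Beclin1 +/- and −2.35 in WT, the chemokine Cxcl14 −1.81 and −2.04, Ptgr1, a prostaglandin reductase, −1.39 and −1.51, and the protease inhibitor Cst6 −1.54 and −2.10, the second −0.61 when cells were thinned to 5000 UMIs. Lce3a, a cornified envelope gene, had −2.12 and −3.03, and its WT ratio was 0.83 after the same thinning and −0.14 without the highest cell of each group. For ratios after thinning, the limits were applied again to the thinned counts, so the classes did not hold the same cells. Ube2c, Ccnb2, Birc5 and Cdca3, which act in mitosis, had ratios between −1.61 and −2.13 across both libraries. Among cells with 3500 to 7000 CPM of Krt12, the WT ratios of Ube2c, Ccnb2 and Cdca3 were −0.89, −0.97 and −0.84, and the Beclin1 +/- ratio of Cdca3 −0.98, under the 2-fold limit. With the Gpha2 limit at 250 CPM the WT ratio of Birc5 was −0.89. After thinning, the WT ratios of Ccnb2 and Cdca3 were −0.85 and −0.83. Cholesterol synthesis genes were lower in 17 of 17, with 3 called and medians of −0.78 in Beclin1 +/- and −1.36 in WT.

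The Krt12-positive cells fell outside the range of both neighbours in a small number of genes, many of them mitotic. Of 4413 genes, 15 were at least 1.5-fold lower than in both neighbours in both libraries and 1 was at least 1.5-fold higher. The higher one was Dab1, a signalling adaptor, with 30.0 CPM in Krt12-positive, 17.9 CPM in Krt12-low and 17.2 CPM in corneal cells of Beclin1 +/-, and 31.9, 13.1 and 18.5 CPM in WT. Of the 15 lower genes, 7 belonged to the 11 measured genes of the G2 and M phase list. For 13 of 15 each of the 4 intervals excluded 0, which is a description, since the genes were chosen by these ratios.

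Top2a, the topoisomerase that untangles chromosomes before division, stood at 13.2 CPM in Krt12-positive, 54.9 CPM in Krt12-low and 47.5 CPM in corneal cells of Beclin1 +/-. In WT it stood at 19.2, 46.0 and 51.3 CPM. Ube2c, the ubiquitin-conjugating enzyme of the anaphase-promoting complex, stood at 34.3, 102 and 151 CPM in Beclin1 +/- and at 39.9, 90.6 and 144 CPM in WT. Cdc20, its activator, stood at 25.7, 61.3 and 58.8 CPM in Beclin1 +/- and at 19.2, 44.2 and 55.4 CPM in WT. The 3 genes were chosen for this order, lowest in the Krt12-positive cells of both libraries.

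Further genes chosen for the same order follow. Smc4, a condensin subunit, stood at 40.0, 85.0 and 82.9 CPM in Krt12-positive, Krt12-low and corneal cells of Beclin1 +/-, and at 33.0, 67.2 and 88.0 CPM in WT. Cenpa, the centromeric histone, stood at 24.7, 65.3 and 68.7 CPM in Beclin1 +/- and at 30.3, 61.3 and 60.1 CPM in WT. Stmn1, a microtubule destabiliser abundant in dividing cells, stood at 109.8, 284 and 234 CPM in Beclin1 +/- and at 148, 252 and 251 CPM in WT. The others were Smc2, Cdca3, Cenpf, Cdca8, Ccnb2, Spc24, Ccdc34, Ppih and 2700094K13Rik. Mki67, a proliferation marker under the limit of 20 CPM in the class, was at 9.30 CPM in the Beclin1 +/- cells and 9.05 CPM in the WT cells, against 26.6 and 21.6 CPM in Krt12-low cells.

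**Figure D4:**
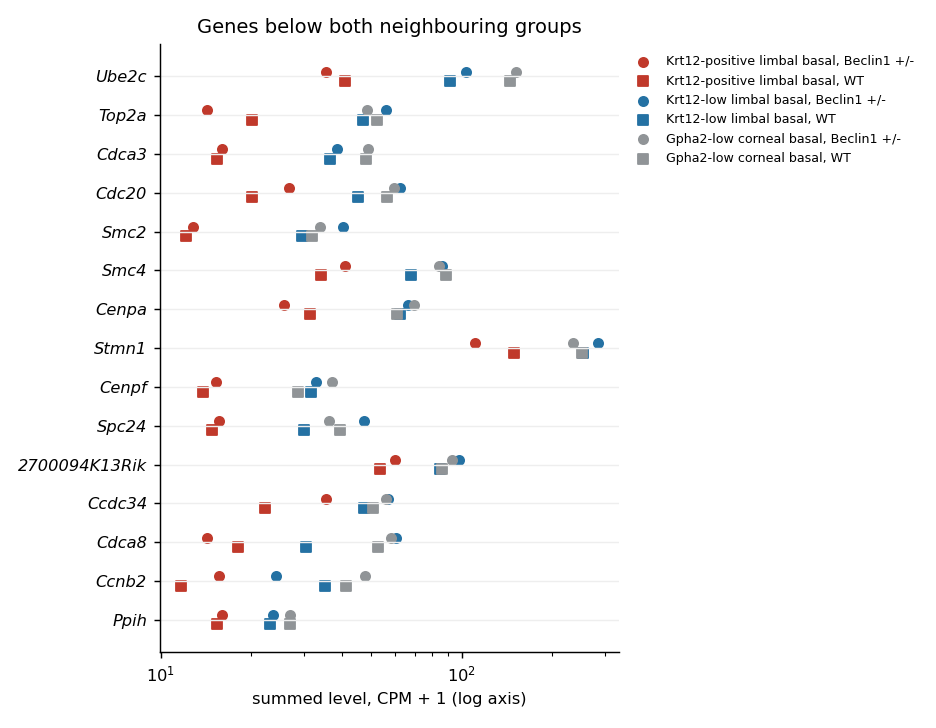
CPM of the 15 genes at least 1.5-fold lower in Krt12-positive limbal basal cells than in both neighbours in both libraries; circles are Beclin1 +/- and squares WT. In each of these genes, chosen for this order, both symbols of the Krt12-positive cells lie below those of the Krt12-low limbal and the corneal basal cells, as for Top2a with 13.2 and 19.2 CPM.

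The G2 and M phase list summed to 996 CPM in Krt12-positive, 1595 CPM in Krt12-low and 1763 CPM in corneal cells of Beclin1 +/-, and to 982, 1509.5 and 1814 CPM in WT. Its 11 measured genes were all below 0 in both comparisons, with 6 called lower beside Krt12-low cells (median −1.15 in Beclin1 +/- and −1.02 in WT) and 7 beside corneal cells (−1.32 and −1.40). After thinning to 5000 UMIs, 10.9% of the Beclin1 +/- cells (exact 95% interval 6.99% to 16.1%) and 12.6% of the WT cells (7.07% to 20.3%) held a UMI of Top2a or Ube2c. Krt12-low cells held one in 17.9% in Beclin1 +/- (12.3% to 24.7%) and 18.6% in WT (12.1% to 26.9%), and corneal basal cells in 24.0% (21.9% to 26.2%) and 22.2% (19.4% to 25.2%). The intervals of Krt12-positive and Krt12-low cells overlap in both libraries. In stromal cells, taken for the background of free RNA, the share was 3.77% in Beclin1 +/- and 2.53% in WT. Unthinned shares in the Krt12-positive cells were 15.9% in Beclin1 +/- and 18.9% in WT.

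The G2 and M list did not run one way along Krt12. Its summed level in the 3 bins of the class was 1126, 808 and 1301 CPM in Beclin1 +/- and 1189, 818 and 741 CPM in WT, so the bin from 7000 to 14000 CPM of Krt12 was lower than the one before it in both libraries and the top bin differed between them. The 4 bins under the Krt12 limit held 2462, 1936, 1219 and 1459 CPM in Beclin1 +/- and 1919, 1158, 1193 and 1779.8 CPM in WT, the first of them on 6 cells in Beclin1 +/-. The bin from 1000 to 2000 CPM was thus close to the class's first bin in both libraries. Among cells with 3500 to 7000 CPM of Krt12, 1 gene of the list was below both neighbours by 1.5-fold, in place of 7. In sparse counts of this size these shares and levels say little of any single cell.

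Between genotypes, the Krt12-positive cells of Beclin1 +/- held more RNA of Prss27, Muc4, Il1f6 and Mmp13 than those of WT, and less of Aldoc, each at least 1.5-fold in all 13 alternatives tried. The higher ones sat in few cells. In Beclin1 +/-, 5 of 201 cells held 58.8% of the Prss27, 67.9% of the Muc4, 66.3% of the Il1f6 and 31.2% of the Mmp13 UMIs. In WT, Prss27 had 21 UMIs, Muc4 20, Il1f6 19 in 6 cells, and Mmp13 104 with 67.3% in 5 cells. Of 4135 genes averaging 20 CPM or more, 109 were at least 1.5-fold higher in Beclin1 +/- (2.64%) and 71 at least 1.5-fold lower (1.72%). The interval excluded 0 in 106 of the 109 and in 71 of the 71. These genes were chosen by their ratio in the same counts, so this is a description and no support. The intervals also take UMIs as independent, and Col3a1, with all 170 WT UMIs in 1 cell, is among the 71. The median gene stood at 0.03 and the central 90% of genes between −0.42 and 0.46. Of the 24 genes named in this comparison, 16 fell under the 1.5-fold limit in at least 1 of 13 alternatives. The values compare 1 mouse with 1 mouse and have no replicate check.

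Among the higher genes, Prss27, a membrane serine protease, stood at 65.1 CPM in Beclin1 +/- against 11.2 CPM in WT, a log2 ratio of 2.51. Its ratio was −0.08 in Krt12-low and 1.69 in corneal basal cells. Krt6b, a stress keratin, stood at 223 against 97.9 CPM, a ratio of 1.18 (0.95 to 1.43), with −1.03 in Krt12-low and 1.29 in corneal cells. Its ratio was 0.19 with the Gpha2 limit at 250 CPM, under the 1.5-fold limit, and 2.49 with that limit at 1000 CPM. S100a9, the partner of S100a8, stood at 252 against 127 CPM, a ratio of 0.99, with 1.23 in Krt12-low and 1.70 in corneal cells, and 0.57 among cells with 3500 to 7000 CPM of Krt12. For Krt6b the 2 limbal classes pointed in opposite directions, a difference that was not tested.

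Several higher genes are known from differentiated surface epithelia, and some sat in few cells. Psca, a lipid-anchored surface protein, stood at 242 CPM in Beclin1 +/- against 57.5 CPM in WT, and 307 of its 677 UMIs in Beclin1 +/- (45.3%) came from 1 cell. Its ratio was 2.07, 1.27 once the single highest cell of each group was left out, and 0.35 among cells with 3500 to 7000 CPM of Krt12. Cysrt1 stood at 46.5 against 10.1 CPM, with 36.2% of its Beclin1 +/- UMIs in 1 cell. Its ratio of 2.17 was 0.57 after thinning to 5000 UMIs with cells chosen anew, and 0.33 among cells with 3500 to 7000 CPM of Krt12. The membrane mucin Muc4 stood at 39.0 against 10.6 CPM, a ratio of 1.84 (1.18 to 2.64), and at 1.19 without the barcodes scored as doublets. Nccrp1 had a ratio of 1.79, which was 1.17 without those barcodes and 0.53 after thinning, under the 1.5-fold limit. Gm9573 had a ratio of 1.88. Wfdc18, with a ratio of 2.67, was instead highest in Krt12-low limbal cells (1001 CPM in Beclin1 +/- and 552 CPM in WT). In the class 5 cells held 97.0% of its UMIs in Beclin1 +/- and 5 cells 96.4% in WT. The superficial list summed to 2225.5 CPM in the Beclin1 +/- cells and 2112 CPM in the WT cells, with 2 of 6 measured genes called higher. The part of superficial cells in the same droplets was not tested.

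The other named higher genes were Il1f6, Mmp13 and Gadd45b. Il1f6, an interleukin 36 cytokine, stood at 32.9 CPM in Beclin1 +/- against 10.1 CPM in WT, a ratio of 1.67. Mmp13 stood at 135 against 55.3 CPM, a ratio of 1.28. Gadd45b, a stress-inducible gene, stood at 182 against 89.9 CPM, a ratio of 1.01, with 0.12 in Krt12-low and 0.23 in corneal cells. Its ratio was 0.19 when cells were thinned to 5000 UMIs and chosen anew, and −0.16 with the Gpha2 limit at 250 CPM, so its call does not hold over these settings.

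Among the lower genes, Cyr61, a secreted target of YAP signalling, stood at 249 CPM in Beclin1 +/- against 410.3 CPM in WT, a ratio of −0.72 (−0.87 to −0.57). It was also below 0 in Krt12-low (−0.28) and corneal cells (−0.64), and lay between −0.43 and −0.57, under the 1.5-fold limit, in 4 of the 13 alternatives. Prss22, a serine protease of airway and other epithelia, stood at 81.9 against 162 CPM, a ratio of −0.98 (−1.24 to −0.73), with 0.06 in Krt12-low and −0.50 in corneal cells. In WT 28.9% of its UMIs in the class came from 1 cell and 54.3% from 5, and among cells with 3500 to 7000 CPM of Krt12 its ratio was −0.29, under the 1.5-fold limit. Tppp3 stood at 94.4 against 162 CPM, a ratio of −0.78, with −0.17 in Krt12-low and 0.05 in corneal cells, and −0.36 after thinning. Alas1, the first enzyme of haem synthesis, stood at 20.4 against 41.5 CPM, a ratio of −1.02, or −0.35 after thinning to 5000 UMIs. Both ratios after thinning are of cells chosen anew by the limits on the thinned counts. Aldoc, a glycolytic aldolase, had a ratio of −1.16, and 2810417H13Rik, a replication-associated gene, −1.03, the last −0.42 with the Gpha2 limit at 1000 CPM.

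The collagens among the lower genes came from 1 cell. All 170 UMIs of Col3a1 in the WT class came from a single cell, against 5 UMIs in the Beclin1 +/- cells. The same kind of concentration held for Col1a2, with 55.6% of its WT UMIs in 1 cell, and Col1a1, with 52.2%. Without the WT cell of the highest stromal level, the log2 ratios were 2.86 for Col3a1, 0.19 for Col1a2 and 0.21 for Col1a1, in place of −5.53, −0.94 and −0.83. Rps27rt, Gm10076 and Gm8186 had ratios of −0.68, −0.71 and −0.98, with −0.69, −0.63 and −0.73 in Krt12-low and −0.62, −0.60 and −0.50 in corneal cells. Rps27rt and Gm10076 resemble ribosomal protein genes closely, and reads could be split between such copies, so their values are uncertain.

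**Figure D5:**
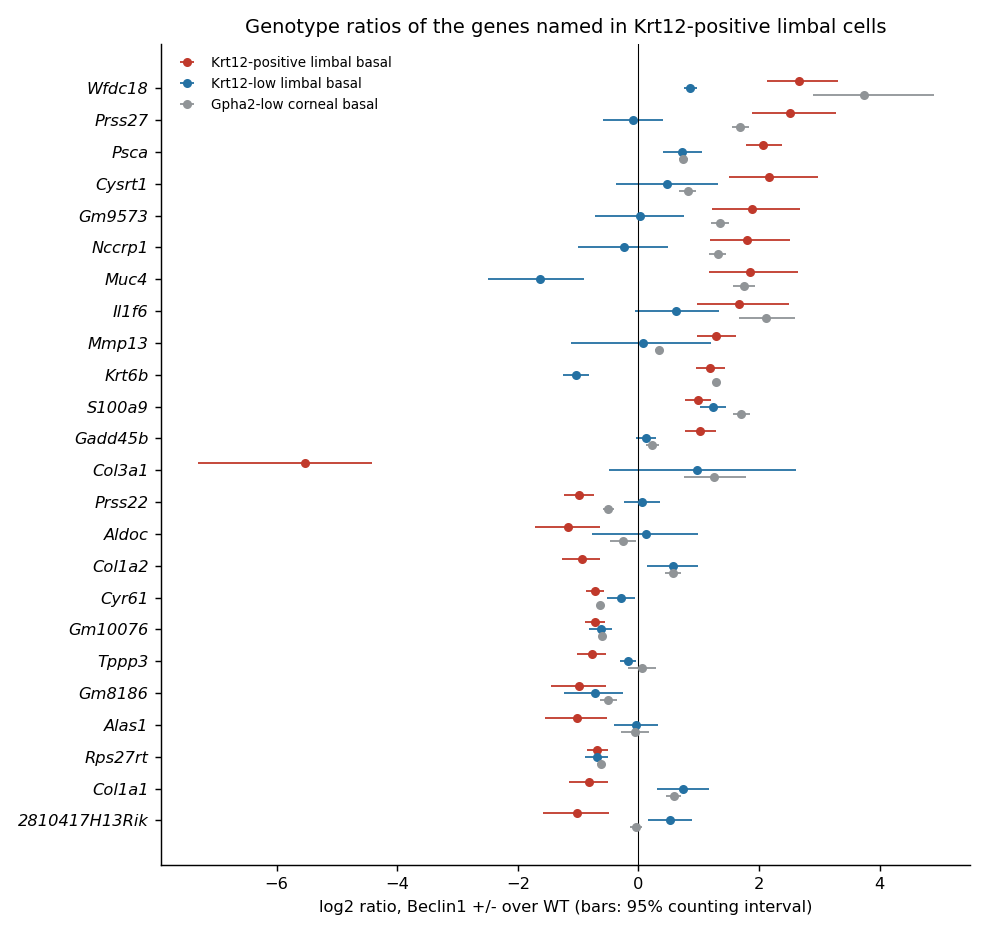
Log2 ratio of Beclin1 +/- over WT for the 12 highest and 12 lowest genes by interval bound in Krt12-positive limbal cells, beside the ratio of the same genes in Krt12-low limbal and Gpha2-low corneal basal cells; bars are exact 95% intervals of counting error. Muc4 and Krt6b are above 0 in Krt12-positive (1.84 and 1.18) and below 0 in Krt12-low cells (−1.63 and −1.03), and Rps27rt, Gm10076 and Gm8186 are below 0 in all 3 classes.

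Autophagy is the process the targeted gene acts in. Of 14 measured autophagy genes, 6 had ratios above 0 and 8 below between genotypes, with a median of −0.02 and none called. Over all genes 2.64% were called higher and 1.72% lower, so no call among 14 is near the background. Lysosomal genes were below 0 in 13 of 19, with a median of −0.12. Cholesterol synthesis genes were above 0 in 12 of 13, with a median of 0.41 against 0.03 for all genes tested, and 3 were called: Fdps (133 CPM in Beclin1 +/- against 73.4 CPM in WT), Cyp51 (67.2 against 40.4 CPM) and Pmvk (ratio 0.78). The same list had medians of 0.33 in Krt12-low and −0.08 in corneal cells. Interferon response genes were above 0 in 5 of 5 with a median of 0.27, and Irf1, a transcription factor of that response, was called at 40.4 against 21.3 CPM.

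Stress keratins had a median of 0.42 with 2 of 4 called higher, heat shock genes were above 0 in 11 of 13 with a median of 0.09, and basement membrane adhesion genes were above 0 in 12 of 15 with a median of 0.06. Medians near 0.03 are those of any gene here, so these last lists did not stand off the background. The mitotic list had a median of −0.04, alarm genes 0.07 and immediate early genes −0.05. The summed G2 and M list stood at 996 CPM in Beclin1 +/- and 982 CPM in WT.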

How the data were processed

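The deposited matrices held unnormalized UMI counts of 27998 features in each cell, made by the authors with Cell Ranger 2.1.1 on mm10, per the submitters' processing notes. How cells were called, and on which annotation, is not given in the sources used here; library totals were 74363359 UMIs (Beclin1 +/-) and 54913980 (WT). No barcode was removed. Counts were summed per class and library, divided by the class total (CPM) and compared as log2 ratios with 0.5 added, for genes averaging 20 CPM or more, with exact conditional 95% intervals. Genes were called at 2-fold in both libraries between classes and at 1.5-fold between genotypes. Named genes were the 12 highest and 12 lowest of each comparison by the interval bound nearest 0, without the 5 genes of the limits, plus genes of the lists. Members and lists were chosen with earlier results of these data known. Positions came from GENCODE M21 (27645 features found), and promoters from RefSeq. Scrublet was run in scanpy 1.11.5, intervals in scipy 1.17.1 and scaling factors in edgeR 4.0.16 under R 4.3.3, with the rest in pandas 2.3.3 and numpy 2.4.6 on Python 3.11.15. Ratios and intervals were tested on simulated counts. Alternatives were other limits on Krt12 and Gpha2, doublet removal, thinning, scaling and filters. In the thinning alternative the limits were applied again to the thinned counts, so its classes are not the same cells. Shares of cells with a UMI after thinning used the original classes.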

Additional observations from a re-analysis of the deposited data

Results flagged for a closer look

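For some results the values of one library or class lay on opposite sides of 0 from those of another. None of these differences was tested, since each genotype was 1 library. Between genotypes, the log2 ratio of Beclin1 +/- over WT of Muc4 was 1.84 in Krt12-positive and −1.63 in Krt12-low limbal cells, and that of Krt6b was 1.18 and −1.03. For 2810417H13Rik it was −1.03 in Krt12-positive and 0.52 in Krt12-low cells. Col3a1 had −5.53 in Krt12-positive and 1.25 in corneal cells. Col1a2 had −0.94 in Krt12-positive cells against 0.57 in Krt12-low and 0.57 in corneal cells, and Col1a1 had −0.83 against 0.73 and 0.58. Of these collagens, most WT reads in the class came from 1 cell.

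Among gene lists, the ratio of Krt12-positive over Krt12-low cells had a median of 1.21 in Beclin1 +/- and −0.62 in WT for superficial epithelium, and −0.25 and 1.33 for keratocytes and stroma. The ratio of Krt12-positive over corneal cells had a median of −0.66 in Beclin1 +/- and 0.89 in WT for conjunctival epithelium, −0.26 and 0.91 for keratocytes and stroma, and 0.24 and −0.25 for interferon response.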

How the results depend on the processing

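With 1 library a genotype no replicate could be left out. No paired analysis was possible because each group has 1 sample and no replicate is shared. Of 120 ratios of named genes, 113 kept their sign under all 13 alternatives. Of 165 list medians, 159 were not counted as reversed under the alternatives that gave a value, and 138 had a value under all 15. Only a median of at least 1.5-fold in size could be counted as reversed. Sign changes of smaller medians are not in this count, so 159 is not the number of medians that kept their sign. The cause of each shift was not tested. Cells of 3500 to 7000 CPM Krt12, the variant without the highest cell and that without 1 WT cell were chosen after seeing the data. "No filter" takes every gene with a UMI in each class compared.

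Against Krt12-low cells, 37 higher genes became 58 (Gpha2 limit 250 CPM), 155 (no filter), 22 (mean of 50 CPM) and 17 (Krt12 3500 to 7000), and 63 lower genes became 288 (no filter), 30 (50 CPM) and 41 (Krt12 3500 to 7000). Against corneal cells, 67 higher became 701, 36 and 102, and 45 lower became 185, 20 and 96, under the same settings, and 19 at the Gpha2 limit of 250 CPM. Between genotypes, 109 higher became 209 (Krt12 limit 7000 CPM), 45 (Gpha2 250), 219 (Gpha2 1000), 191 (thinned), 1453 (no filter), 22 (50 CPM), 68 (equal weight per cell) and 237 (Krt12 3500 to 7000). The 71 lower became 139 (Krt12 7000), 138 (Gpha2 1000), 272 (thinned), 1204 (no filter), 15 (50 CPM) and 242 (Krt12 3500 to 7000). The 15 genes below both neighbours became 9 (Gpha2 250), 9 (thinned), 117 (no filter) and 4 (50 CPM), and the 7 of the G2 and M list 4, 4, 14 and 2, and 1 at Krt12 3500 to 7000. The share of cells was 2.46% in Beclin1 +/- and 2.23% in WT at Krt12 7000, 6.13% and 6.53% at Gpha2 250, and 2.33% and 2.90% at Gpha2 1000.

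Reversed list medians against Krt12-low cells were −0.29 for superficial epithelium in Beclin1 +/- (Krt12 3500 to 7000), −0.74 (Krt12 7000) and −0.32 (thinned) for stroma in WT, and 0.015 for immediate early genes in WT (Gpha2 250). Against corneal cells they were −0.062 for conjunctival (Gpha2 1000) and −0.076 for stromal genes (Krt12 7000) in WT. Between genotypes the stromal list gave 0.25 (Krt12 7000), 0.10 (Gpha2 1000), 0.11 (doublets removed), 0.39 (thinned), 0.13 (without the highest cell) and 0.15 (without the WT cell of highest stromal level). In the same order, Col1a2 gave 0.29, 0.078, 0.16, 0.74, 0.17 and 0.19, and Col1a1 0.21, 0.46, 0.16, 0.48, 0.18 and 0.21. Col3a1 gave 0.59, 2.96 and 2.88 under the first 3, and 2.60 and 2.86 under the last 2. Mmp3 against Krt12-low cells was −0.023 in Beclin1 +/- (Krt12 3500 to 7000). Against corneal cells in WT, S100a8 was −4.65 (Krt12 7000) and Lce3a 0.83 (thinned). Gadd45b between genotypes was −0.16 (Gpha2 250). TMM scaling moved the median of all genes by 0.07 in Beclin1 +/- and 0.13 in WT against Krt12-low cells.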

Other observations

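Of 16 measured progenitor transcription factors, none was called between Krt12-positive and Krt12-low limbal cells, with medians of −0.15 in Beclin1 +/- and −0.21 in WT. Over all genes 0.879% were called higher and 1.5% lower, so no call in a list of this size is near the background. Sox4, which is not on that list, was called lower. Klf5, a factor of proliferating epithelium, stood at 757 CPM in Krt12-positive against 699 CPM in Krt12-low cells of Beclin1 +/- and at 780.2 against 693 CPM in WT. Sox9, a factor of epithelial stem cells, stood at 97.6 against 94.2 CPM in Beclin1 +/- and at 96.9 against 108 CPM in WT. Genes of Notch and of Wnt signalling, with 5 measured each, had no call between Krt12-positive and Krt12-low cells, again near the background. Notch genes had medians of 0.072 in Beclin1 +/- and −0.23 in WT, and Wnt genes 0.014 and −0.071.

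Cell cycle inhibitors were listed beside the low mitotic RNA of the Krt12-positive cells, and a link between them was not tested. Of 8 measured inhibitors none was called against Krt12-low or against corneal cells. Over all genes 0.879% were called higher and 1.5% lower against Krt12-low cells, and 1.61% and 1.08% against corneal cells. No call in a list of this size is thus near the background. Cdkn1a, which encodes the inhibitor p21, stood at 1566 CPM in Krt12-positive, 1401 CPM in Krt12-low and 1722 CPM in corneal cells of Beclin1 +/-, and at 1459.7, 1299 and 1702 CPM in WT. Of 5 measured S phase genes none was called against Krt12-low cells, which is also near the background. Gsta4, a glutathione transferase that clears lipid aldehydes, had ratios over Krt12-low cells of 1.28 in Beclin1 +/- and 0.83 in WT, the second under the 2-fold limit.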
